A study of Mus musculus with 6 samples.

Results

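The genes described here are 32 genes of mitosis and the mitotic spindle, picked by symbol from a deposited expression table of 54532 genes and all 32 present in it. RNA was sequenced from mouse T cells recovered after co-culture with the mouse ovarian cancer line ID8. In 3 libraries (cisplatin) these tumour cells had first been exposed to cisplatin, a platinum drug that crosslinks DNA, at 40 µM by the labels, and in the other 3 libraries (control) with phosphate-buffered saline (PBS) alone. The comparison asks how T cells differed after contact with drug-treated tumour cells. In both groups the cells had been prepared from spleens of C57BL/6 mice of 6 to 8 weeks with a pan T-cell kit. They were held in medium with 10 ng/mL interleukin 2 and 10% serum, and were stimulated with anti-CD3/28 beads for 72 h before meeting the ID8 cells. The methods describe no step that removed ID8 cells from the collected T cells, and no library of ID8 cells alone was analysed here. Neither the ratio of T cells to ID8 cells nor the length of the co-culture is given in the sources used here. The labels do not say whether the 3 libraries of a group came from separate mice or cultures, so the p-values measure only the spread between these libraries, which may be technical.

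Mitotic genes are transcribed in waves as a cell passes from DNA replication into division. Cyclins and CDK1 start mitosis, kinesins and microtubule-binding proteins build the spindle, and the spindle assembly checkpoint holds the anaphase-promoting complex in check until every kinetochore is attached. Resting T cells hold few of these transcripts, and T cells that are stimulated through CD3 and CD28 make them as they divide.

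Expression was given as FPKM, read counts scaled to transcript length and to the library. The counts could be rebuilt from the FPKM and came to between 30606569 and 32169496 reads on genes in each library, with 187 to 11836 reads on any member in any library. The T-cell label was checked on 25 T-cell identity genes. All were above 0.5 FPKM on average, and together they summed to 2740 to 2818 FPKM in the cisplatin libraries, against 1743 to 1864 FPKM in the control libraries. Markers of other cells were present too. The 27 ID8 tumour cell markers found in the table summed to 276.4 to 286.9 FPKM with cisplatin and 1819 to 1905 FPKM in the control. Among them Wt1, a transcription factor of mesothelial and ovarian surface cells, was at 4.97 ± 0.469 FPKM (SD, n = 3) with cisplatin and 48.0 ± 1.31 FPKM in the control, and the collagen gene Col3a1 was listed at 0 in every library. The 10 B-cell markers summed to 3665 to 3736 FPKM against 1717 to 1806 FPKM, and the 15 myeloid markers to 132.5 to 151.2 FPKM against 67.8 to 72.82 FPKM. A single gene made up most of the B-cell sum, Ighm at 3188 to 3274 FPKM against 1393 to 1468 FPKM. Lyz2 was the largest part of the myeloid sum, at 79.25 to 97.2 FPKM against 28.97 to 32.59 FPKM. Of the myeloid markers 4 averaged under 0.5 FPKM. The part of these other cells in the values below was not tested. In such bulk samples fewer cells of a type and less RNA per cell cannot be told apart.

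Many mitotic promoters are known to carry CCAAT boxes, bound by the factor NF-Y, and a cell cycle genes homology region (CHR), bound by the DREAM and MuvB complexes. Promoters of 300 bases, from 250 before to 50 after the transcription start, were available from RefSeq (GRCm38.p6) for 26 of the 32 members, with 28 promoters in all. They were searched on both strands for the CHR word TTTGAA, for its variants with a central CG (TTCGAA) or a central TA (TTTAAA), and for the CCAAT box, and the matches are in capitals. On the other strand TTTGAA reads TTCAAA and CCAAT reads ATTGG, while the remaining CHR words read the same. The promoters shown are those of the 2 largest rises (Mki67 and Cdc20) and of the largest fall (Anln). Also shown is that of Top2a, a gene of like level to Mki67 that did not pass the test on the deposited scale.
Mki67 (chr7:135716330-135716629, minus strand): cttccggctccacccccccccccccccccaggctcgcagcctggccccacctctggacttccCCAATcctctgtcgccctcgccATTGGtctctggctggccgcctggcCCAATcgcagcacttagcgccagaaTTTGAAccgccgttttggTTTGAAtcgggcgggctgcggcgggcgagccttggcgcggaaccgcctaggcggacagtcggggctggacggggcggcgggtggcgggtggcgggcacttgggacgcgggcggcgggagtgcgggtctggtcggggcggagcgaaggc
Cdc20 (chr4:118437294-118437593, minus strand): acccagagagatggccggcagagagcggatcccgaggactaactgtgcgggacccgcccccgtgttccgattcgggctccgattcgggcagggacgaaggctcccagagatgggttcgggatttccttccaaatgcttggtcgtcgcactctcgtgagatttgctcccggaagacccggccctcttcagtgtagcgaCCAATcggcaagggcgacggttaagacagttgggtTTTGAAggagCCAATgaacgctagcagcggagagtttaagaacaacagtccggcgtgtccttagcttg
Top2a (chr11:99024140-99024439, minus strand): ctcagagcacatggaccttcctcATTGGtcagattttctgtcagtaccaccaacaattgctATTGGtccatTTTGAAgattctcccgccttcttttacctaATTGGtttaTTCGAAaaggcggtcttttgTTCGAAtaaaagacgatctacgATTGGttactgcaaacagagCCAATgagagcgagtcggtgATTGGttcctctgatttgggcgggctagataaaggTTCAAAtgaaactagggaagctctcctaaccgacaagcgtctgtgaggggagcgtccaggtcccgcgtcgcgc
Anln (chr9:22389157-22389456, minus strand): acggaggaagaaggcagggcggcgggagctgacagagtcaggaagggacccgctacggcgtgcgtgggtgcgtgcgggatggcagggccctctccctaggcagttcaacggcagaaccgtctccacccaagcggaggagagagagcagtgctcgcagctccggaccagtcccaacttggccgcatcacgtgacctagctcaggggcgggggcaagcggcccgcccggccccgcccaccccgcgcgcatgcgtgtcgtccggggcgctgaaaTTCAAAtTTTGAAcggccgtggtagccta

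The Mki67 promoter held 2 CHR words, 116 and 98 bases before the start, behind 3 CCAAT boxes at 188, 166 and 141 bases. The Cdc20 promoter held a CHR word at 18 bases and CCAAT at 53 and 8 bases before the start. Top2a had 4 CHR words and 6 CCAAT boxes in the same window. Anln differed from these in having no CCAAT box, and its 2 CHR words lay after the annotated start, at bases 22 and 29 of the transcript. Across the members, a CHR word was found in 26 of 28 promoters (92.9%), against 28.8% of all 32851 promoters of this length. TTTGAA alone was in 22 of them (78.6%, against 17.9%), and CCAAT was in 23 (82.1%, against 37.4%). Both motifs together were in 82.1% of the members' promoters and 11.3% of all promoters, and at least 2 CCAAT boxes were in 53.6% against 11.7%. Mad2l1 and Nusap1 were the members with a promoter in the table and no CHR word in the window. The Mad2l1 window ended at base 66535270, before the start of the counted gene at 66535390. The Kif2c window ended at base 117179022, inside the counted gene, whose first base on the minus strand is 117182639. For these 2 members the window therefore missed the start of the counted gene. The 24 members with a CHR word had a median log2 fold change of 0.14 on the deposited scale, and the 2 members without one had a median of 0.15. These matches are descriptions of the sequence, and no binding was measured.

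As a group the mitotic transcripts moved little between the conditions on the deposited scale. By limma on log2(FPKM + 0.1), with Benjamini-Hochberg adjustment over the 15874 genes that averaged 0.5 FPKM or more, 13 members were higher with cisplatin at an adjusted p under 0.05, where 27.5% of all genes tested were, and 4 were lower, where 29.0% were. The other 15 did not pass. The median log2 fold change of the members was 0.14, and that of all genes tested was 0.03. At the fold change of 2 that is added for a call, 0 members were called higher (4.11% of all genes) and 1, Anln, was called lower (12.8% of all genes). The fit of the rebuilt reads with limma's voom also called 0 higher and 1 lower, with 19 higher and 3 lower at an adjusted p under 0.05, where 31.7% and 25.6% of its genes were. All 3 cisplatin libraries lay above all 3 control libraries for 15 members, as they did for 31.9% of all genes, and below them for 5, as for 32.3% of all genes. On this scale the members' changes were small beside those of all genes tested, since 24 of 32 lay within 0.3 of 0 in log2 fold change and 40.8% of all genes did. Genes of like level were not compared separately. The largest rise was 1.54-fold. The summed FPKM of the members was 376.4 to 377.9 in the cisplatin libraries, against 337.1 to 343.2 in the control libraries. Levels in the control ran from 2.2 FPKM for Ttk to 34 FPKM for Top2a, and replicates were close, with a median coefficient of variation of 5.05% in the cisplatin and 4.45% in the control libraries.

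**Figure D1:**
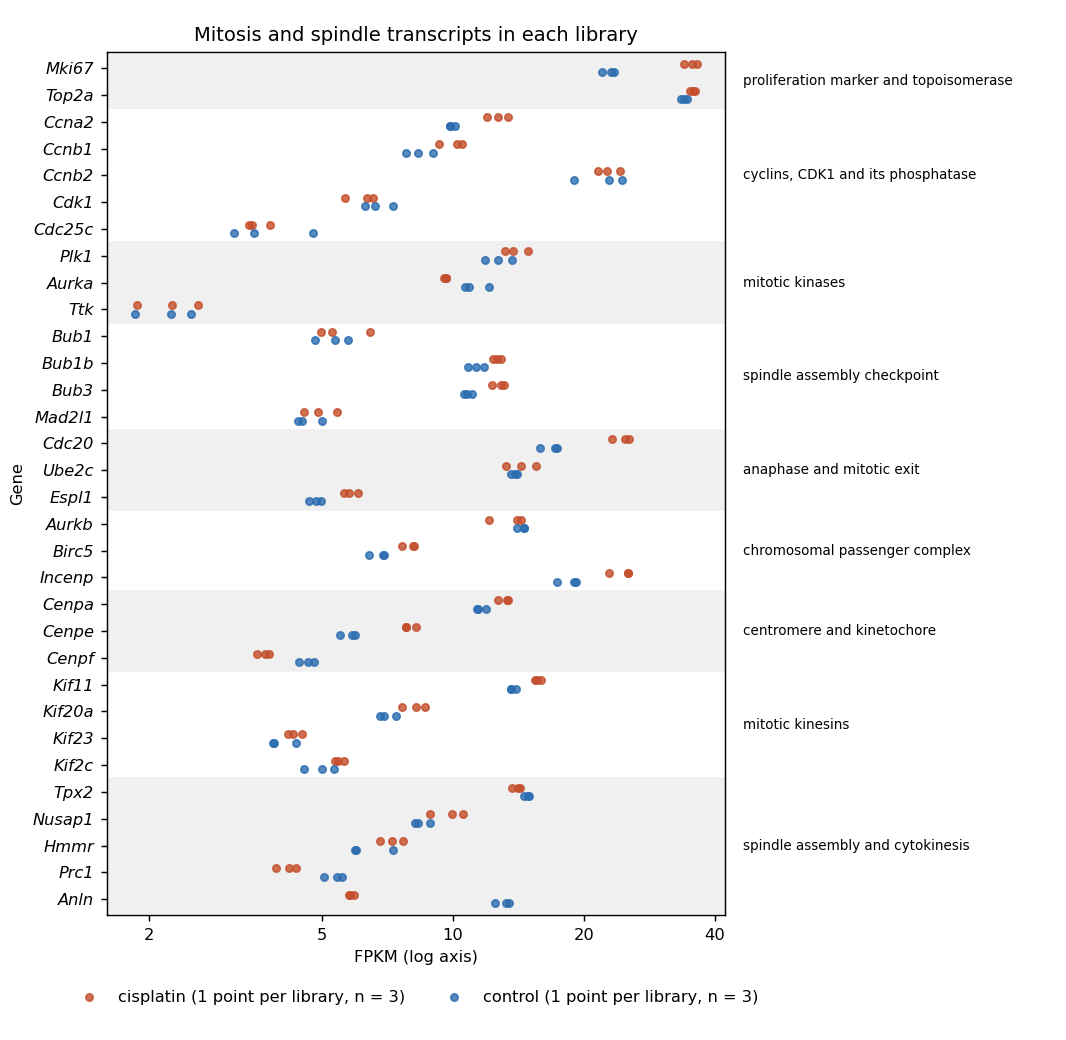
FPKM of each member in each of the 6 libraries, 1 point per library, on a log axis and grouped by role. The cisplatin points of Mki67 and Cdc20 lie to the right of the control points and those of Anln far to the left, while for Top2a, Ccnb2, Ube2c and Tpx2 the groups lie close together or overlap.

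The direction of most of these changes depended on what the libraries were scaled to. The T-cell identity genes were on average 0.50 higher with cisplatin on the log2 scale. When their mean level was subtracted in each library (T-cell centring), 1 member was higher (6.0% of all genes) and 28 were lower (61.5% of all genes), with a median log2 fold change of -0.36. The median of all genes tested was then -0.47. That centring shifts every gene of a library alike. By construction the members' median therefore stood 0.11 above the median of all genes under both scalings. For each 100 FPKM of T-cell identity transcripts, the mitotic transcripts summed to 13.8, 13.4 and 13.7 FPKM in the cisplatin libraries, against 19.3, 18.7 and 18.3 FPKM in the control libraries. Mki67 alone was higher on both scales, and Anln, Prc1, Cenpf and Aurka were lower on both. This scaling takes the T-cell identity genes as unchanged, which the data cannot show, and the tumour cell RNA in the control libraries enters the members' values on either scale to a degree that was not tested. Values below are on the deposited scale unless stated otherwise.

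**Figure D2:**
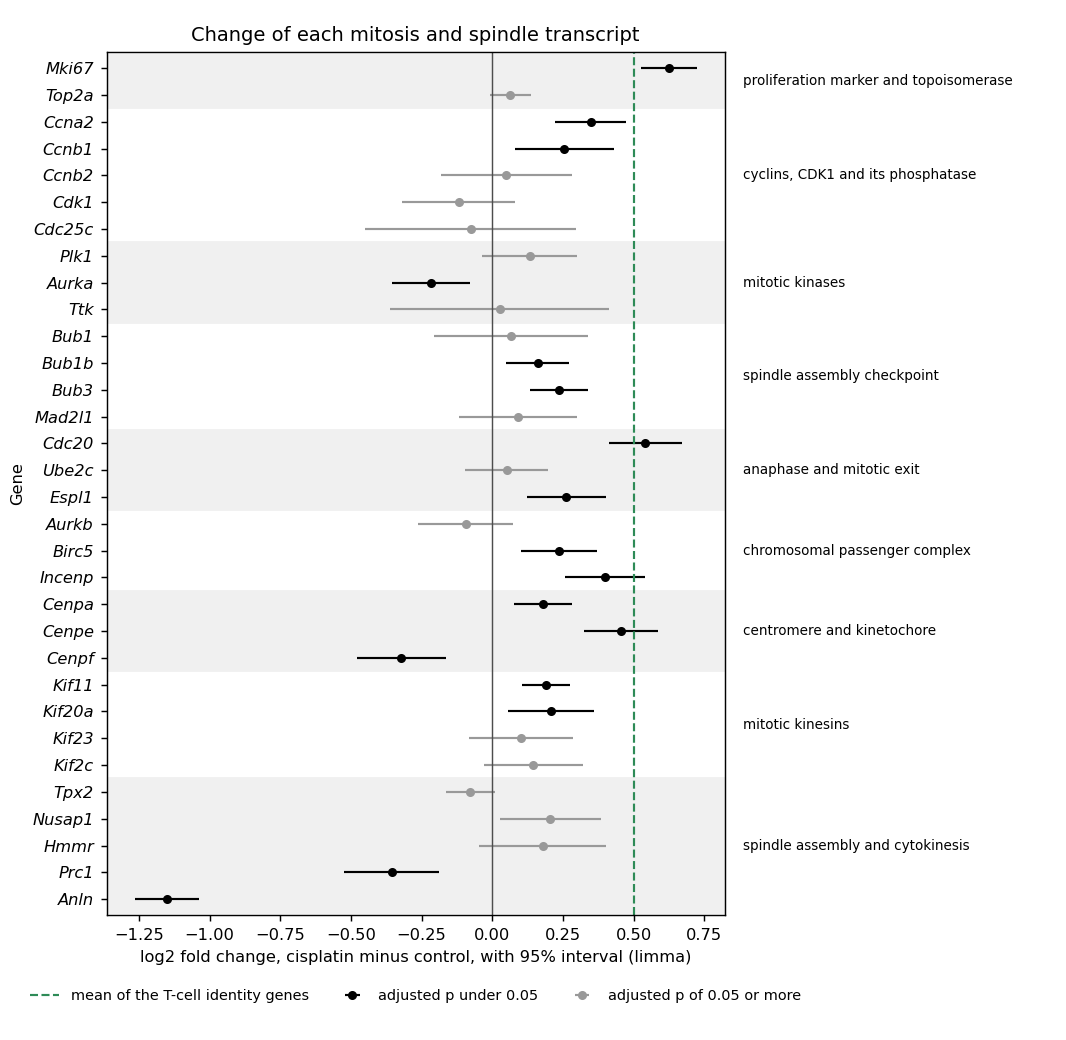
Log2 fold change of each member, cisplatin minus control, with its 95% interval from limma, in black where the adjusted p was under 0.05 and in grey otherwise. The dashed line is the mean rise of the T-cell identity genes (0.50), so that only Mki67 and Cdc20 have estimates to its right, and Anln stands apart at -1.15.

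Mki67, which encodes the Ki-67 protein that coats mitotic chromosomes and is the usual marker of cycling cells, showed the largest rise. Its level was 33.9, 35.4 and 36.3 FPKM in the cisplatin libraries, against 23.5, 23.1 and 21.96 FPKM in the control libraries. Every cisplatin library was thus well above every control library. The log2 fold change was 0.62 (SE 0.042, 1.54-fold, adjusted p = 2.5e-05 by limma), and with T-cell centring 0.12 (adjusted p = 0.046). Top2a, the topoisomerase that untangles replicated chromosomes, was at much the same level as Mki67 in the cisplatin libraries but barely differed between the groups. It measured 36.0, 34.99 and 35.6 FPKM with cisplatin and 34.0, 33.4 and 34.5 FPKM in the control, groups that came close without overlapping. Its log2 fold change of 0.06 had a 95% interval of -0.01 to 0.14 and did not pass the test (adjusted p = 0.11 by limma). Top2a did pass as higher after quantile normalization (0.14, adjusted p = 0.013) and with voom (0.15, adjusted p = 0.00034). With T-cell centring it was lower (-0.44, adjusted p = 3e-05).

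Among the genes that drive entry into mitosis, 2 cyclins rose on the deposited scale, where 27.5% of all genes were higher. Cdk1 and Cdc25c, the only CDK1-activating phosphatase among the members, did not pass the test. With T-cell centring all 5 genes were lower, as were 61.5% of all genes. Ccna2, the cyclin of S phase and early mitosis, was at 12.7, 13.4 and 11.95 FPKM with cisplatin and 9.82, 9.86 and 10.1 FPKM in the control, a log2 fold change of 0.35 (SE 0.052, adjusted p = 0.0013 by limma). The groups were separate, though 12.5% of its exon bases are shared with Exosc9 on the opposite strand. Ccnb1, a main mitotic cyclin, was at 10.2, 9.28 and 10.5 FPKM against 8.98, 7.80 and 8.29 FPKM, with a log2 fold change of 0.25 (SE 0.072, adjusted p = 0.022), and the lowest cisplatin library was only just above the highest control library. It no longer passed when cisplatin library 1 or 3 or control library 2 or 3 was left out (0.21 to 0.25, adjusted p = 0.06 to 0.072), nor on TPM (adjusted p = 0.05). Ccnb2, the other B-type cyclin, spread from 19.0 to 24.4 FPKM in the control and from 21.5 to 24.1 FPKM with cisplatin, so that the groups overlapped. Cdk1, the kinase these cyclins activate, had a mean of 6.19 ± 0.467 FPKM (SD, n = 3) with cisplatin and 6.73 ± 0.525 FPKM in the control (log2 fold change -0.12, 95% interval -0.32 to 0.08). Cdc25c, a phosphatase that switches CDK1 on, was the noisiest member of the control group, at 3.14 to 4.77 FPKM, and its log2 fold change of -0.08 was 0.10 without control library 1. The 2 cyclins that rose stood at -0.15 (Ccna2) and -0.25 (Ccnb1) after that centring.

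None of the 3 mitotic kinases passed as higher on the deposited scale, where 27.5% of all genes did. Aurka, the centrosome kinase that helps to build the spindle poles, was lower, at 9.64, 9.55 and 9.66 FPKM with cisplatin and 10.7, 10.9 and 12.1 FPKM in the control. The cisplatin libraries were nearly equal and lay below all control libraries, with a log2 fold change of -0.22 (SE 0.058, adjusted p = 0.017 by limma). It no longer passed after quantile normalization (-0.10, adjusted p = 0.19), in a fit of the rebuilt reads with limma's voom (-0.14, adjusted p = 0.16) or without cisplatin library 2 (-0.21, adjusted p = 0.05). Plk1, the kinase of centrosome maturation and mitotic exit, had a log2 fold change of 0.13 with overlapping groups, and passed as higher after quantile normalization (0.24, adjusted p = 0.018) and with voom (0.22, adjusted p = 0.023). Ttk, the kinase that starts checkpoint signalling at kinetochores, was the lowest of the members in both groups and ranged over 1.88 to 2.60 FPKM and 1.86 to 2.498 FPKM.

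In the spindle assembly checkpoint 2 of the 4 members were higher on the deposited scale (27.5% of all genes were), and all 4 were lower with T-cell centring (61.5% of all genes were), from -0.44 for Bub1 to -0.26 for Bub3. Bub3, which carries its partner kinases to the kinetochore, was at 12.9, 12.3 and 13.1 FPKM with cisplatin and 10.6, 11.1 and 10.8 FPKM in the control. That is a log2 fold change of 0.24 (SE 0.043, adjusted p = 0.0032 by limma), with no overlap. Bub1b, the BubR1 subunit that blocks the anaphase-promoting complex, rose by less, with a log2 fold change of 0.16 (SE 0.046, adjusted p = 0.023), and Bub1 and Mad2l1 did not pass, at 0.07 and 0.09. Bub1b no longer passed without cisplatin library 1 or 3 or control library 1 or 3 (0.13 to 0.16, adjusted p = 0.056 to 0.07), nor on TPM (0.14, adjusted p = 0.061).

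Cdc20, the activator of the anaphase-promoting complex that the checkpoint holds back, showed the next largest rise after Mki67. It measured 24.9, 25.4 and 23.1 FPKM in the cisplatin libraries, against 15.9, 17.1 and 17.4 FPKM in the control libraries. The groups were far apart, with a log2 fold change of 0.54 (SE 0.053, 1.46-fold, adjusted p = 0.00017 by limma). Relative to the T-cell identity genes it was 0.04 (adjusted p = 0.51). Ube2c, the ubiquitin-conjugating enzyme that works with the same complex, did not follow. Its levels of 14.3, 15.5 and 13.2 FPKM overlapped the 13.6, 14.0 and 13.9 FPKM of the control, and the 95% interval of its log2 fold change ran from -0.10 to 0.20. For Ube2c 22.8% of the exon bases are shared with Tnnc2, which was listed at 0 on average in both groups, and a processed pseudogene copy of it was at 1.01 to 4.48 FPKM, so its reads may be split. Espl1, the separase that cuts cohesin at anaphase, was higher by 0.26 (SE 0.058, adjusted p = 0.0081) and was -0.24 relative to the T-cell identity genes.

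The 3 members of the chromosomal passenger complex, which corrects faulty attachments of chromosomes to the spindle, did not move as 1 unit. Incenp, its scaffold, was at 22.8, 25.3 and 25.2 FPKM with cisplatin against 19.2, 18.9 and 17.4 FPKM, a separate pair of groups with a log2 fold change of 0.40 (SE 0.059, adjusted p = 0.0013 by limma). Birc5, or survivin, was at 8.11, 8.11 and 7.65 FPKM against 6.39, 6.89 and 6.95 FPKM (0.24, SE 0.056, adjusted p = 0.01). Aurkb, the kinase of the complex, had a log2 fold change of -0.09 with a 95% interval of -0.26 to 0.07, and its groups overlapped. Relative to the T-cell identity genes Incenp and Birc5 were at -0.10 (adjusted p = 0.18) and -0.27.

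At the centromere and kinetochore the genes parted in direction. Cenpe, the kinesin that carries chromosomes to the spindle equator, was at 7.79, 7.79 and 8.24 FPKM with cisplatin and 5.51, 5.94 and 5.86 FPKM in the control (log2 fold change 0.45, SE 0.055, adjusted p = 0.00046 by limma). Cenpf, a large protein of the outer kinetochore, was at 3.78, 3.54 and 3.70 FPKM against 4.79, 4.63 and 4.43 FPKM (-0.32, SE 0.065, adjusted p = 0.0053). Neither gene overlapped between groups, and they lay on opposite sides. After quantile normalization Cenpf was at -0.14 (adjusted p = 0.11) and no longer passed, and on the T-cell scale Cenpe was at -0.05 (adjusted p = 0.48). Cenpa, the histone H3 variant that marks centromeres, was higher by 0.18 (SE 0.042, adjusted p = 0.01), and was at -0.32 on the T-cell scale.

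All 4 mitotic kinesins had log2 fold changes between 0.10 and 0.21. On the T-cell scale all 4 were lower, from -0.40 for Kif23 to -0.29 for Kif20a. There 61.5% of all genes were lower, and the median of all genes was -0.47. Kif11, or Eg5, which pushes the spindle poles apart, was at 15.6, 15.4 and 15.96 FPKM with cisplatin against 13.6, 14.0 and 13.6 FPKM. This tight separation gave a log2 fold change of 0.19 (SE 0.036, adjusted p = 0.0038 by limma). Kif20a, a kinesin of the cytokinetic midzone, rose by 0.21 (SE 0.064, adjusted p = 0.03). In GENCODE M21, 29.3% of its 4338 exon bases are shared with Cdc23 on the opposite strand. The gene as counted had 3796 exon bases, so that share may differ, and the strand of the counting is not given. Without cisplatin library 1 or 2 or control library 2 or 3 Kif20a did not pass (0.17 to 0.20, adjusted p = 0.082 to 0.089). Nor did it on TPM (0.19, adjusted p = 0.062) or with every gene above 0 FPKM in the fit (adjusted p = 0.054). Kif23, the motor of the centralspindlin complex, and Kif2c, which depolymerises microtubules at centromeres, did not pass, though for Kif2c the groups did not overlap (5.36 to 5.60 FPKM against 4.54 to 5.32 FPKM).

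The genes of spindle assembly and cytokinesis held the clearest falls. Anln encodes anillin, the actin-binding scaffold of the contractile ring that pinches dividing cells apart. It measured 5.92, 5.79 and 5.75 FPKM in the cisplatin libraries, against 13.2, 13.5 and 12.5 FPKM in the control libraries, which corresponds to a mean of 1722 reads against 3577 reads. The cisplatin libraries were all below the lowest control library by a wide margin. The log2 fold change was -1.15 (SE 0.047, 2.22-fold lower, adjusted p = 2.8e-06 by limma), and Anln was at the 12.1 percentile of all genes tested. Prc1, which bundles the microtubules of the midzone, was at 4.35, 4.20 and 3.92 FPKM against 5.42, 5.06 and 5.57 FPKM (-0.36, SE 0.070, adjusted p = 0.0046). It shares 11.1% of its exon bases with Rccd1 on the opposite strand, and it no longer passed after quantile normalization (-0.17, adjusted p = 0.08). Tpx2, the activator of the Aurora A kinase on spindle microtubules, was slightly lower in every cisplatin library (13.6 to 14.2 FPKM against 14.5 to 14.9 FPKM) but did not pass (adjusted p = 0.11). The microtubule-binding genes Nusap1 and Hmmr did not pass either, at 0.21 (adjusted p = 0.054) and 0.18 (adjusted p = 0.15), but each did when a single library was left out. Nusap1 was at 0.28 without cisplatin library 1 (adjusted p = 0.013), and Hmmr was at 0.27 without control library 1 (adjusted p = 0.023).

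Of the 22 ID8 markers tested, 21 fell, with a median log2 fold change of -2.41, whereas 23 of the 25 T-cell identity genes were higher, with a median of 0.58, and 1, Themis, was lower. All 10 B-cell markers were higher. Of the 11 myeloid markers tested 9 were higher and 1, Cd14, was lower. Of all genes tested 27.5% were higher and 29.0% lower. How much of each member's RNA came from tumour cells was not tested.

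Members that are used side by side in a cell could also be compared within a library, where the scaling of the library cancels. The 5 pairs given here were chosen after their values were seen, so neither their p-values nor their separation between groups carries independent weight. The ratio of Mki67 to Top2a was 0.992 ± 0.043 (SD, n = 3) in the cisplatin libraries, against 0.672 ± 0.031 in the control libraries. The ratio of Cdc20 to Ube2c was 1.71 ± 0.059 against 1.21 ± 0.042, and that of Cenpe to Cenpf 2.16 ± 0.09 against 1.25 ± 0.09. For Kif23 to Anln, both needed in the late stages of cytokinesis, it was 0.743 ± 0.037 against 0.309 ± 0.022. None of these 4 ratios overlapped between groups. Single genes did not overlap for 31.9% (higher) and 32.3% (lower) of all genes tested, and the share among other pairs was not counted. In a two-sided exact permutation test each reached p = 0.1, the smallest that 3 libraries against 3 allow, and 0.12 after adjustment over the 5 pairs. The cyclin pair Ccnb1 to Ccnb2 was 0.439 ± 0.022 against 0.385 ± 0.076 (exact p = 0.4), and its groups overlapped. A rescaling of whole libraries leaves all of these ratios as they are. A difference in the mix of cells does not cancel in this way, and the part of tumour and other cells in the ratios was not tested.

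**Figure D3:**
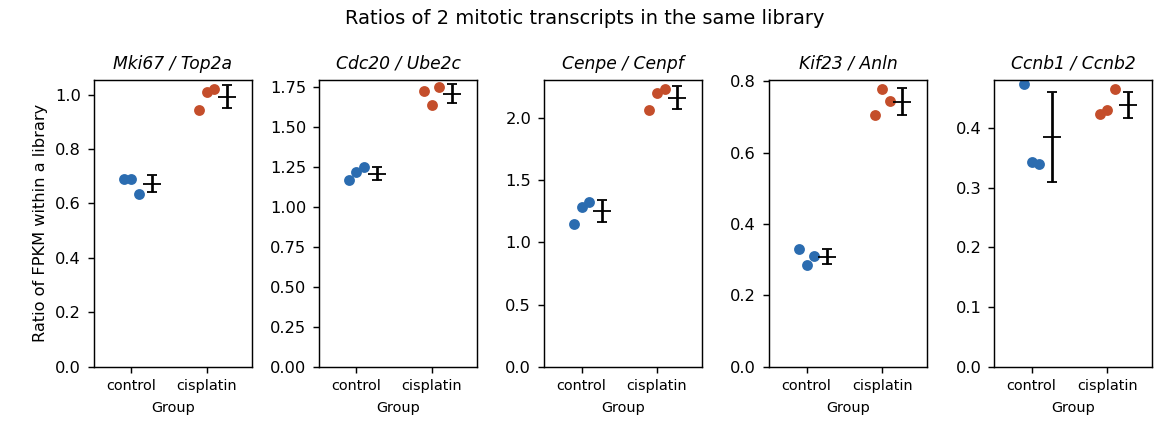
Ratios of FPKM of 2 members in the same library for 5 pairs, with 1 point per library and the mean ± SD (n = 3) beside them. In the first 4 panels the cisplatin points (from 0.942 to 1.02 for Mki67 to Top2a, for example) lie above all control points (0.636 to 0.691), and in the Ccnb1 to Ccnb2 panel they overlap.

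Other genes of the same pathways moved in both directions on the deposited scale, where 27.5% of all genes tested were higher and 29.0% lower. With T-cell centring the medians of all 7 lists were negative, from -0.50 for the anaphase-promoting complex to -0.25 for DNA replication, beside -0.47 for all genes tested. Of 30 other kinetochore and centromere genes 8 were higher and 5 lower (median 0.18). Spc24, a subunit of the NDC80 complex that grips microtubules, was called lower, with 6.64 ± 0.236 FPKM (SD, n = 3) against 19.8 ± 0.776 FPKM (log2 fold change -1.56, adjusted p = 8.4e-07 by limma), and Zwint, a kinetochore scaffold, was at -0.67, while Cenpl and Cenpn were at 0.56 and 0.54. Of 27 other kinesin, spindle and cytokinesis genes 9 were higher and 3 lower (median 0.17). The 2 largest falls there were in Cep55, which recruits the abscission machinery to the midbody, at -0.87 (9.8 ± 0.542 FPKM against 18 ± 0.36 FPKM), and in Ect2, the exchange factor that switches on RhoA at the cleavage site, at -0.74 (5.66 ± 0.377 FPKM against 9.54 ± 0.0662 FPKM). The 2 largest rises were in the spindle genes Kif15 (0.51) and Dlgap5 (0.40).

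Of 18 other checkpoint and mitotic entry genes 7 were higher and 2 lower (median 0.22). Gtse1 and the CDK subunit Cks1b rose, by 0.73 and 0.48, and the mitotic inhibitor kinase Wee1 and the kinase Mastl were lower, at -0.66 and -0.45. Of 18 genes of the anaphase-promoting complex and its regulators 3 were higher and 4 lower (median -0.00). The complex's inhibitor Fbxo5 was higher at 0.57, and the subunits Anapc15 and Anapc4 lower at -3.12 and -0.72. Anapc15 shares 38.4% of its exon bases with Tomt on the opposite strand, which was at 0.107 FPKM on average with cisplatin and 0.375 FPKM in the control. Of 23 condensin and cohesin genes 11 were higher and 4 lower (median 0.12), among them the condensin subunit Smc4 at 0.73 and the condensin II subunit Ncaph2 at -0.73. Of 17 transcriptional regulators of mitotic genes 8 were higher and 1 lower (median 0.20). E2f8 and Mybl2, the latter a partner of the MuvB complex at mitotic promoters, were higher at 0.75 and 0.53, and E2f1 was lower at -0.39.

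DNA replication genes, which act before mitosis, were higher for 18 and lower for 2 of 34 on the deposited scale (median 0.25) and higher for 2 and lower for 17 with T-cell centring (median -0.25), where 6.0% and 61.5% of all genes were. The ribonucleotide reductase subunit Rrm2 was called higher, at 29.3 ± 1.48 FPKM (SD, n = 3) against 14.1 ± 0.903 FPKM (log2 fold change 1.05, adjusted p = 1.3e-05 by limma), while its partner subunit Rrm1 was lower at -0.32.

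**Figure D4:**
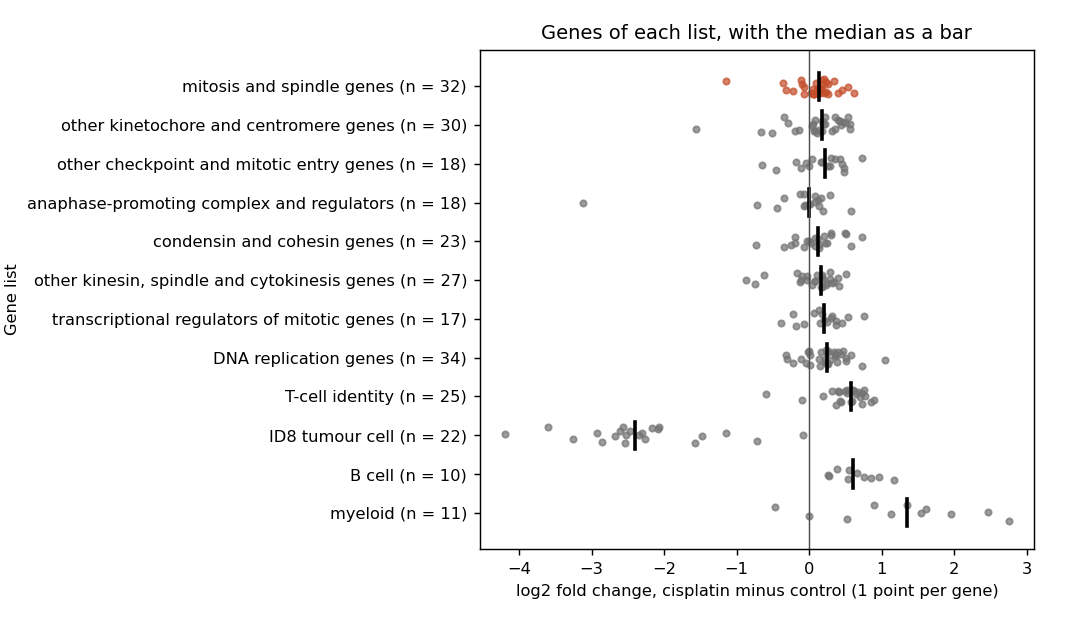
Log2 fold change, cisplatin minus control, of each tested gene of 12 lists on the deposited FPKM scale, with 1 point per gene and the list's median as a bar. The mitosis and spindle genes (median 0.14) and the other pathway lists spread to both sides of 0. The B-cell markers and most T-cell and myeloid markers lie to the right, and the ID8 markers lie to the left (median -2.41). Themis (-0.60) and Tespa1 (-0.10) of the T-cell list and Cd14 (-0.47) of the myeloid list lie to the left, and the myeloid marker Cd68 is at 0.004. With T-cell centring, all 7 pathway medians and that of all genes (-0.47) were below 0.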

How the data were processed

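RNA of 3 cisplatin and 3 control libraries was purified with poly-T beads by the labels and sequenced on an Illumina instrument. The authors deposited FPKM values for 54532 genes. The submitters' processing notes name fastp, HISAT2 2.0.5, featureCounts 1.5.0-p3 and the build mm10, while the study's methods name LifeScope for alignment and counting, so the aligner behind the FPKM is uncertain. The strand of the counting is not given in the sources used here. The table held 0 further sample columns. Gene coordinates were the same as in GENCODE M21 for 29 of the 32 members, and differed for Cdc25c, Incenp and Kif20a.

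From the FPKM and gene lengths whole reads were rebuilt, with every value within 0.1 of a whole read, and the depth (30606569 to 32169496 reads on genes) covers counting error only. The denominator of the FPKM was 1.04 times these reads in the cisplatin and 0.980 times in the control libraries. Replicates differed by more than sampling noise (chi-square per degree of freedom 5.36 to 6.44).

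The groups were compared on log2(FPKM + 0.1), a scale that understates changes of low genes, with limma 3.58.1 (lmFit, eBayes with trend) in R 4.3.3, over 15874 genes averaging 0.5 FPKM or more. P-values were Benjamini-Hochberg adjusted over all of them, and a call needed an adjusted p under 0.05 and a fold change of 2. In simulated data 197 of 199 changed genes and 8 unchanged genes passed among 15678. How often the fit finds changes as small as those of most members was not tested. Ratios were compared by exact permutation with scipy 1.17.1. Exon overlaps came from GENCODE M21, in which 9 members share exon bases with another gene, and promoters from RefSeq.

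The members, gene lists and marker lists were chosen with earlier results of these data known, and some come from an earlier analysis of them. All members may be named, with, from each pathway list, the 2 largest rises and 2 largest falls that passed and whose groups did not overlap, and any marker. Alternatives were 2 pseudocounts, 2 filters, 4 scalings (median of ratios, quantile, T-cell centring, TPM), no trend, limma's treat, voom on the rebuilt reads with at least 10 reads in 3 libraries, each library left out, and the replicate number as a block. No columns of the authors' own comparisons were used.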

Additional observations from a re-analysis of the deposited data

How the results depend on the processing

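The members' median log2 fold change of 0.14 was 0.12 with a pseudocount of 1, 0.18 with a minimum mean of 5 FPKM (26 members), 0.13 with median of ratios, 0.28 after quantile normalization, 0.12 on TPM, 0.22 with voom and -0.36 centred on the T-cell identity genes, and 0.13 to 0.15 with each library left out. Quantile normalization and voom moved the median of all genes to 0.16 and 0.10 and T-cell centring to -0.47. The members' median was 0.10 to 0.15 above that of all genes in every setting. For T-cell centring this was fixed in advance, since it shifts every gene of a library alike. Median of ratios and TPM rescale each library by a single factor, so they could hardly change it. The fits without trend, with treat or with the replicate block leave every fold change as it is. The counts of 13 higher and 4 lower became 20 and 1 after quantile normalization and 1 and 28 after T-cell centring. TPM gave 10 higher (25.8% of all genes), with Ccnb1 (adjusted p = 0.05), Bub1b (0.061) and Kif20a (0.062) no longer passing, and Kif20a was also lost with every gene above 0 FPKM (0.054). At least 5 FPKM gave 14 higher and 2 lower of 26 members (37.5% and 34.4% of its genes), Cenpf and Prc1 having been removed by the filter. Limma's treat at a fold of 1.5 left 0 higher (0 at an unadjusted p under 0.05) and 1 lower, where 3.74% and 12.8% of all genes passed. Leaving out each library gave 10 to 13 higher and 3 to 4 lower, where 23.7% to 25.1% and 26.7% to 27.5% of all genes were. With the replicate block 12 were higher and 4 lower (26.1% and 27.8% of all genes), Bub1b being lost (adjusted p = 0.053), and the block took no other member across the threshold. Same-numbered libraries did not deviate together (correlations 0.023, -0.063 and -0.021), and not every library correlated best with its own number, so the numbers were not taken as pairs. Anln was called lower in every setting run, and Mki67 was higher at an adjusted p under 0.05 in every setting but treat, by as little as 0.12 with T-cell centring. T-cell centring turned 22 members negative, namely Top2a -0.44, Ccna2 -0.15, Ccnb1 -0.25, Ccnb2 -0.45, Plk1 -0.37, Ttk -0.47, Bub1 -0.44, Bub1b -0.34, Bub3 -0.26, Mad2l1 -0.41, Ube2c -0.45, Espl1 -0.24, Birc5 -0.27, Incenp -0.10, Cenpa -0.32, Cenpe -0.046, Kif11 -0.31, Kif20a -0.29, Kif23 -0.40, Kif2c -0.36, Nusap1 -0.30 and Hmmr -0.32. Quantile normalization turned Cdk1 to 0.036, Cdc25c to 0.12, Aurkb to 0.0105 and Tpx2 to 0.028, and voom turned Cdc25c to 0.0070 and Tpx2 to 0.0048. Leaving out 1 library turned Ccnb2 to -0.053 (control 1) and Cdc25c to 0.10 (control 1, range -0.20 to 0.10), Ttk to -0.08 (cisplatin 3) or -0.085 (control 1), Bub1 to -0.0415 (cisplatin 3) and Ube2c to -0.0049 (cisplatin 2, range -0.0049 to 0.11). None of the members turned by quantile normalization, voom or leaving out a library had passed. Top2a, Plk1, Kif23, Kif2c, Nusap1 and Hmmr passed as higher both after quantile normalization and with voom. The voom fit took the rebuilt reads on genes as library size. The FPKM denominator was 1.04 times these reads in the cisplatin and 0.980 times in the control libraries. The cause of the changes with scaling was not tested. Genes near 2 FPKM, such as Ttk with 274 to 414 reads, were the least precise.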
